A study of Chrysanthemum x morifolium with 6 samples.

Results

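Type-B response regulators are the transcription factors at the end of the cytokinin signalling chain. Clusters of assembled root transcripts were taken as members when the deposited regulator table placed them in the family ARR-B, or when their best Swiss-Prot match was a two-component response regulator named ARR1, ARR2, ARR10, ARR11, ARR12, ARR13, ARR14 or ARR18, leaving out names that say regulator-like. This gave 42 clusters of 10744 in the table. By best-match name, 12 were ARR18, 9 were ARR1, 7 were ARR11, 7 were ARR12, 5 were ARR2 and 2 were ARR14, and 0 were ARR10 or ARR13. Membership used annotation only, not expression. The names are those of the best Arabidopsis match and do not establish orthology.

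The plants were 1-month-old seedlings of the chrysanthemum cultivar jinba (Chrysanthemum x morifolium), all raised in one greenhouse regime. Control plants were given purified water and the other plants 100 mM salt water, and roots were taken 24 h after treatment. The series text also mentions 2 days of controlled watering, without saying clearly whether both groups had it. Each group has 3 libraries given as biological replicates, and the labels do not say how many plants went into each.

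In cytokinin signalling, the hormone is sensed by membrane histidine kinases, and phosphate passes through histidine phosphotransfer proteins to response regulators in the nucleus. A type-B regulator carries a receiver domain that takes the phosphate and a GARP domain that binds DNA, and it switches on target genes. Among those targets are the type-A regulators, which carry a receiver without the DNA-binding part and damp the signal. In Arabidopsis roots, ARR1, ARR10 and ARR12 carry much of the cytokinin response, and ARR1 and ARR12 also act on the root sodium transporter gene HKT1;1.

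Levels between libraries are given as CPM, counts-per-million of the effective library size (recovered depth times a TMM composition factor). Levels between clusters are given as the deposited FPKM, fragments per kilobase of cluster scaled to depth. A cluster is called higher or lower when the adjusted p of edgeR's quasi-likelihood test of salt against control, with Benjamini-Hochberg adjustment over the 5284 tested clusters of the whole table, is under 0.05. Recovered depth was 15.93 to 20.13 M fragments (M for mega) in the control libraries and 12.77 to 16.12 M in the salt libraries. In the regulator table, clusters with a best NR match in a listed seed-plant genus held 97.9% to 98% of the counts in control libraries and 89.7% to 93.1% in salt libraries. Clusters matched to a listed genus of oomycetes, algae or other protists held 0.383% to 0.412% and 2.15% to 3.17%, and clusters with no match or an unlisted genus held the rest. Because this differs between the groups, the main values are also given under a scaling computed from seed-plant-matched clusters alone. This scaling moves the median of all tested clusters up by 0.45 on the log2 scale, from -0.36 to 0.08. Unlike the main scaling, it draws on the regulator table only. Scalings from that whole table also move this median up, by 0.22 (column sums with their own TMM) and 0.3 (DESeq2 size factors). The part of the 0.45 that comes from leaving out other matches was not tested. The root regulators SHORT-ROOT (13.15 to 31.25 summed FPKM over the 6 libraries), SCARECROW (21.97 to 37.98), WOX5 (3.24 to 6.57), PLT (1.44 to 5.5) and WER (0.49 to 3.03) had values above 0 in every library, while 0 clusters were named ROOT HAIR DEFECTIVE 6. The names GLK1 or GLK2, regulators of green tissue, reached 22.34 to 33.93 summed FPKM over 11 clusters, within the range of SCARECROW. The floral name APETALA1 reached 0.53 to 7.49 FPKM, and AGAMOUS and LEAFY were at 0 clusters. In roots, fewer cells of a type and less RNA per cell cannot be told apart from these values.

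The label type-B was carried unevenly by the members. A receiver domain was annotated in 20 of the 42 clusters and the orthology term for type-B regulators in 28, while 13 clusters had neither. The deposited family was ARR-B for 8 clusters, G2-like (the wider GARP family) for 25 and Orphans for 9. The Swiss-Prot match score, the authors' alignment score, ran from 122 to 1251 with a median of 217.5, and 16 clusters reached 400. Each of the 7 ARR12 clusters had the receiver annotation and scored 414 to 760. None of the 12 ARR18 clusters had it, and their scores stayed between 159 and 264. The most abundant ARR18-named cluster, Cluster-71316.251861, has a probable transcription factor GLK2 as its best NR protein. A best NR match in a seed plant was found for 40 of the 42 clusters. The other 2, Cluster-113446.0 and Cluster-71316.33051, are ARR18-named and match a green alga of the genus Bathycoccus. Cluster lengths ran from 294 to 3488 bases.

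Expression was concentrated in a few clusters. ARR2-named clusters held 61.7% of the mean summed member counts, ARR12 17%, ARR11 9.92%, ARR18 8.28%, ARR1 2.77% and ARR14 0.282%. Counts grow with cluster length. In summed FPKM, ARR12 held 36.75% ± 0.954 and ARR2 35.6% ± 0.450 (SD, n = 3) in control libraries. In salt libraries they held 16.16% ± 0.525 and 54.16% ± 2.47. Mean FPKM reached 1 in 22 of the 42 clusters, and 2 ARR18 clusters, Cluster-71316.92099 and Cluster-71316.251862, were at 0 in all 6 libraries. In control roots the ARR2 cluster Cluster-71316.132147 led with 35.69, 38.25 and 37.82 FPKM. The ARR12 cluster Cluster-71316.175223 followed with 33.28, 32.62 and 29.79 FPKM, and the second ARR2 cluster, Cluster-71316.172855, with 18.07, 19.56 and 19.93 FPKM. These 3 ranges do not overlap, whereas the next pair, Cluster-71316.227438 (ARR12, 10.92 to 11.59 FPKM) and Cluster-71316.251861 (ARR18, 9.6 to 11.58 FPKM), do not differ beyond their spread. In salt roots Cluster-71316.132147 stood alone at 40.51, 40.21 and 42.9 FPKM. Behind it, Cluster-71316.172855 (7.98 to 9.22 FPKM), Cluster-71316.200952 (4.92 to 9.41) and Cluster-71316.175223 (6.15 to 7.64) were 2nd to 4th, and each neighbouring pair overlapped. Thus the ARR12 cluster that was close behind the leader in control roots was at 6.76 ± 0.781 FPKM (SD, n = 3) against 41.21 ± 1.47 in salt roots.

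**Figure D1:**
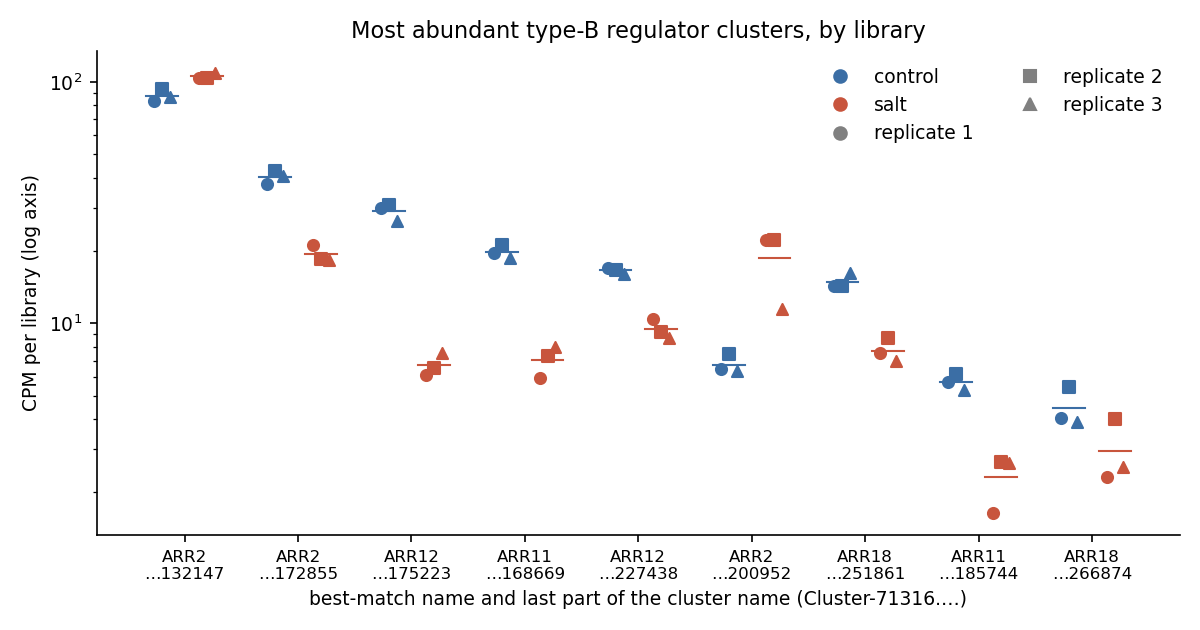
CPM (log axis) of the 9 member clusters with a mean of at least 3 CPM, one point per library, with a line at each group mean; circles, squares and triangles are replicates 1, 2 and 3. The salt libraries lie above the controls for the ARR2 clusters Cluster-71316.132147 and Cluster-71316.200952, overlap them for the ARR18 cluster Cluster-71316.266874, and lie below them for the other 6.

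Of the 42 clusters, 24 passed the low-count filter and were tested. In salt roots 4 of them were higher (16.7%, against a background of 23.9% of all tested clusters) and 11 were lower (45.8%, against 29.3%), while 9 were not called. Called either way were 15 of 24, beside 53.2% of all tested clusters. Their median log2 fold change was -1.06, beside -0.36 for all tested clusters. With seed-plant scaling, 4 were higher and 8 lower, with a median of -0.63, beside 31.8% higher, 18.1% lower and a median of 0.08 for all tested clusters. The libraries of the groups did not overlap in CPM for 79.2% of the tested members (5 higher in salt and 14 lower), against 67.3% of all tested clusters. A cluster can pass the filter through 1 group alone, so these figures describe the tested clusters and not the 18 others, which were too sparse to test. By name, the lower calls were 5 of 6 tested ARR12 clusters, 4 of 5 ARR11, 1 of 4 ARR18 and 1 of 3 ARR2. The higher calls were 2 ARR2 clusters, 1 of 5 ARR1 clusters and the single tested ARR14 cluster. Clusters that share a best NR protein are counted singly here, so the counts need not be of separate genes. Among the 14 tested clusters with a receiver domain, 1 was higher and 9 lower (median -1.60), and among the 10 without one, 3 were higher and 2 lower (median -0.30). Whether these shares differ was not tested.

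**Figure D2:**
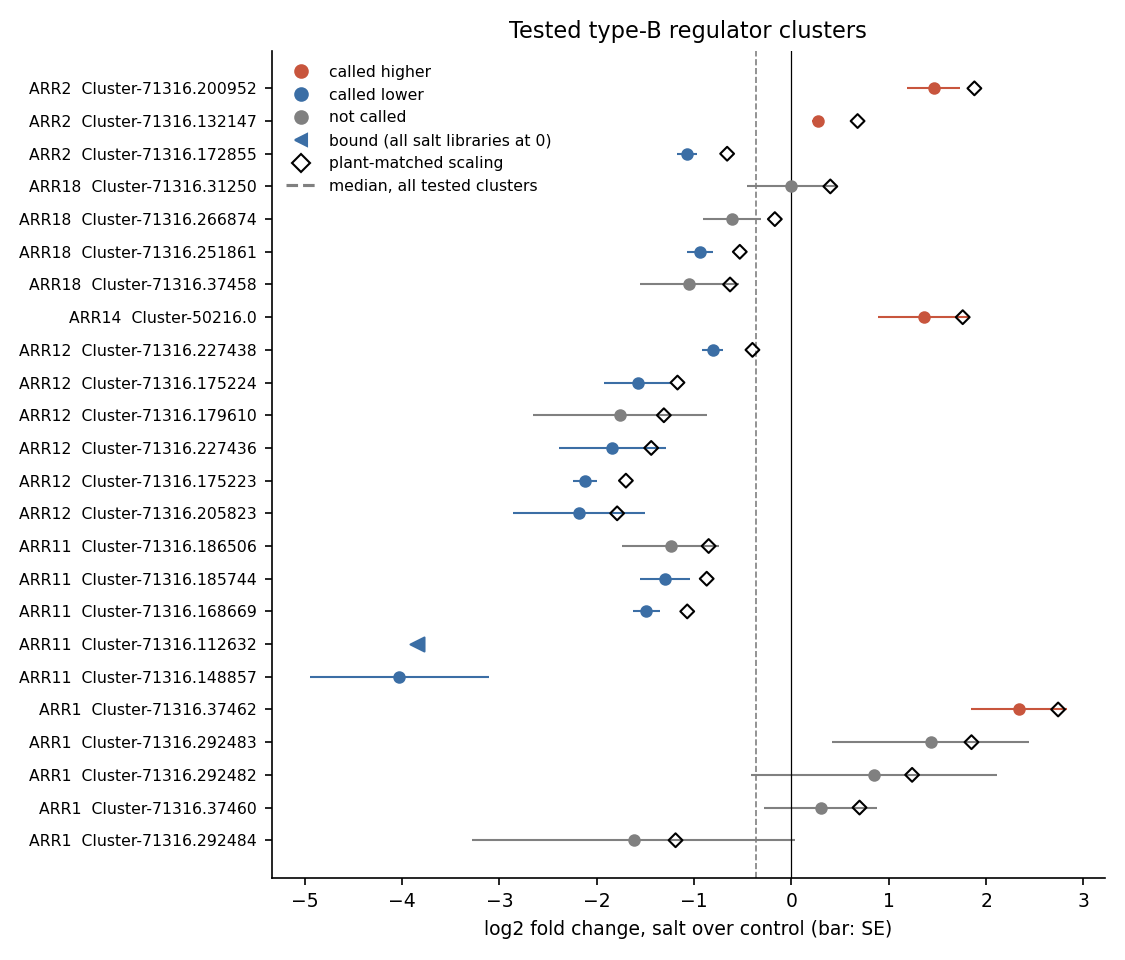
Log2 fold change of salt over control for the 24 tested member clusters (points, bars are SE; red called higher, blue called lower, grey not called), with the value under seed-plant scaling as an open diamond and a triangle for the bound where all salt libraries are at 0. The dashed line is the median of all tested clusters, -0.36, and the ARR11 and ARR12 clusters all lie to its left.

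ARR2 is linked in Arabidopsis to cytokinin control of leaf senescence. Its most abundant cluster here, Cluster-71316.132147, has the highest match score of the family (1251) and a receiver domain. It stood at 82.99, 93.01 and 86.38 CPM in control and 103.6, 103.2 and 109 CPM in salt libraries. The salt values are all above the control values, by a small margin, and the cluster rose by a log2 fold change of 0.27 (SE 0.06, adjusted p = 0.013, edgeR, Benjamini-Hochberg). That call rests on the scaling and on single libraries: the adjusted p is 0.062 with depth alone (log2 fold change 0.15), 0.056 without control 1 (0.23) and 0.05, just over the threshold before rounding, without control 3 (0.26), whereas with seed-plant scaling the log2 fold change is 0.68.

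Cluster-71316.172855 is also ARR2 by Swiss-Prot, although its best NR protein is named ARR1. It held 37.71, 42.68 and 40.86 CPM in control and 21.16, 18.38 and 18.28 CPM in salt libraries. The salt libraries lie well below the controls, and the cluster fell by 1.07 on the log2 scale (SE 0.10, adjusted p = 0.00036, edgeR, Benjamini-Hochberg), or by 0.66 with seed-plant scaling.

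Cluster-71316.200952 shares its best NR protein with Cluster-71316.132147 but has no receiver annotation. It was at 6.445, 7.434 and 6.35 CPM in control and 22.12, 22.11 and 11.48 CPM in salt libraries. Salt 1 and salt 2 lie far above the controls and salt 3 in between, and the cluster rose by 1.46 (SE 0.27, adjusted p = 0.0043, edgeR, Benjamini-Hochberg; log2), or by 1.88 with seed-plant scaling. Summed with Cluster-71316.132147, with which it may share reads, the level was 94.2 ± 5.65 CPM in control and 123.9 ± 2.92 in salt (SD, n = 3; log2 fold change 0.39, adjusted p = 0.0027 by edgeR with Benjamini-Hochberg). The other ARR2 clusters, Cluster-84915.0 and Cluster-71316.172859, had at most 0.497 CPM in any library and were not tested. All 5 ARR2 clusters together gave 134.8 ± 7.97 CPM in control and 143.4 ± 4.30 in salt, a log2 fold change of 0.09 (SE 0.06) that was not called (adjusted p = 0.27, edgeR, Benjamini-Hochberg). The direction of this sum depends on the scaling: it is -0.03 with depth alone and 0.50 with seed-plant scaling, where it is called.

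ARR12 is a main root type-B regulator in Arabidopsis, and 5 of its 6 tested clusters were called lower, or 3 with seed-plant scaling. The leading cluster, Cluster-71316.175223, had 30.09, 30.9 and 26.44 CPM in control and 6.107, 6.494 and 7.557 CPM in salt libraries. The lowest control is over the highest salt value by a wide gap, and the cluster fell by 2.12 (SE 0.12, adjusted p = 9.5e-05, edgeR, Benjamini-Hochberg; log2), or by 1.70 with seed-plant scaling. It is 1 of 5 ARR12 clusters that share a best NR protein, so the lower calls need not be of separate genes. The sum of those that share it went from 35.49 ± 2.765 to 8.46 ± 0.765 CPM (SD, n = 3). Its log2 fold change was -2.07 (adjusted p = 8.8e-05, edgeR, Benjamini-Hochberg), or -1.65 with seed-plant scaling. A second ARR12 cluster with a different best match, Cluster-71316.227438, had 16.89, 16.66 and 16.06 CPM in control and 10.44, 9.157 and 8.694 CPM in salt libraries. Its groups also stay apart, with a smaller change of -0.81 (SE 0.11, adjusted p = 0.0016, edgeR, Benjamini-Hochberg), or -0.4 with seed-plant scaling. In control libraries the first cluster had 1.78, 1.86 and 1.65 times the CPM of the second, and in salt libraries 0.585, 0.709 and 0.869 times. Their order thus reversed in CPM, which does not allow for cluster length. In FPKM the first stayed ahead in salt 2 (6.49 against 5.68) and salt 3 (7.64 against 5.45), but not in salt 1 (6.15 against 6.51).

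Further ARR12 clusters had 0.352 to 3.455 CPM in control libraries. Cluster-71316.175224 fell from 2.90 ± 0.623 to 0.960 ± 0.218 CPM (SD, n = 3; log2 fold change -1.58, adjusted p = 0.0081, edgeR with Benjamini-Hochberg). Cluster-71316.205823 (log2 fold change -2.18, adjusted p = 0.034) and Cluster-71316.227436 (-1.84, adjusted p = 0.028, both edgeR with Benjamini-Hochberg) were also called lower. Both calls are lost with seed-plant scaling (adjusted p 0.064 and 0.066) and without any of several single libraries, with an adjusted p of up to 0.12 without control 2 for Cluster-71316.205823 and up to 0.11 without control 3 for Cluster-71316.227436. Cluster-71316.179610 was at -1.76 and not called, and Cluster-71316.248799 was too sparse to test. Summed over all 7 clusters, ARR12 went from 53.6, 56.23 and 51.05 CPM in control to 18.68, 17.73 and 18.61 CPM in salt libraries. Both groups are tight and far apart, and the sum fell by 1.55 (SE 0.07, adjusted p = 6.7e-05, edgeR, Benjamini-Hochberg; log2), or by 1.13 with seed-plant scaling.

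ARR11 is a further DNA-binding type-B regulator of Arabidopsis. Its most abundant cluster, Cluster-71316.168669, had 19.48, 21.14 and 18.63 CPM in control and 5.923, 7.296 and 7.983 CPM in salt libraries. No salt value comes near a control value, and the cluster fell by 1.49 (SE 0.14, adjusted p = 0.00045, edgeR, Benjamini-Hochberg; log2), or by 1.07 with seed-plant scaling. Cluster-71316.112632, with the same best NR protein, had 3.888, 1.394 and 4.129 CPM in control and 0 in each salt library. Set against a floor of 3 counts per library, that is at least 14.4-fold lower (adjusted p = 0.0031, edgeR, Benjamini-Hochberg). Cluster-71316.148857 had 49 reads over the control and 2 over the salt libraries, a ratio of 18.8 after scaling (exact 95% interval 4.94 to 160, counting error only). Its edgeR call (Benjamini-Hochberg adjusted p = 0.011) is lost without control 2 (0.052) or control 3 (0.054). With seed-plant scaling it was not tested.

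Cluster-71316.185744 and Cluster-71316.186506 are ARR11-named without a receiver annotation. Cluster-71316.185744, whose best NR protein is a homeodomain-like protein, was at 5.712, 6.174 and 5.307 CPM in control and 1.638, 2.663 and 2.642 CPM in salt libraries. It fell by 1.30 (SE 0.26, adjusted p = 0.0058, edgeR, Benjamini-Hochberg; log2). Cluster-71316.186506 was at 1.73 ± 0.249 and 0.728 ± 0.406 CPM (SD, n = 3) and was not called (log2 fold change -1.24, adjusted p = 0.075, edgeR with Benjamini-Hochberg; 0.035 without salt 1). The short clusters Cluster-71316.279471 and Cluster-71316.209709, which carry the receiver annotation, had at most 8 counts in a control library and 0 in the salt libraries, and were not tested. All 7 ARR11 clusters together went from 31.67 ± 0.798 to 10.16 ± 1.27 CPM (SD, n = 3), a log2 fold change of -1.64 (SE 0.11, adjusted p = 0.00016, edgeR, Benjamini-Hochberg), or -1.22 with seed-plant scaling.

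ARR1, which acts with ARR12 in Arabidopsis roots, was scarce by Swiss-Prot name, and the summed level under that name was higher in salt roots. Both statements leave out Cluster-71316.172855, which is ARR2 by Swiss-Prot but ARR1 by its best NR protein. That cluster had a mean of 40.42 CPM in control and 19.27 CPM in salt libraries, above the sum of the ARR1-named clusters in both. The 4 long ARR1-named clusters, Cluster-71316.292481 to Cluster-71316.292484, share a best NR protein and a score of 1028. None was called singly: each was at 0 in at least 1 library, and log2 fold changes of the tested ones ran from -1.62 to 1.43. Summed, they had 3.343, 2.513 and 3.341 CPM in control and 5.184, 5.521 and 6.988 CPM in salt libraries. The summed salt values all lie above the controls, and the sum rose by 0.94 (SE 0.22, adjusted p = 0.012, edgeR, Benjamini-Hochberg; log2), or by 1.36 with seed-plant scaling. That sum was chosen after the data were seen, because the reads of near-identical clusters can be split between them.

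Short clusters make up the remaining ARR1 signal. Cluster-71316.37462, which has no receiver domain and matches an ARR18-like protein in NR, had 0.1759, 0.345 and 0.2397 CPM in control and 1.491, 0.8442 and 1.664 CPM in salt libraries. The groups do not overlap, and it rose by 2.34 (SE 0.49, adjusted p = 0.0077, edgeR, Benjamini-Hochberg; log2), on 3 to 21 counts per library. Summed with Cluster-71316.37460, which has the same best NR protein, the change was 1.16 and was not called (adjusted p = 0.067, edgeR with Benjamini-Hochberg). The ARR18-named Cluster-71316.37461 also has that best NR protein and is not in this sum. All 9 ARR1 clusters together went from 4.29 ± 0.665 to 8.92 ± 1.78 CPM (SD, n = 3), a log2 fold change of 1.06 (SE 0.21, adjusted p = 0.0063, edgeR, Benjamini-Hochberg).

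ARR14 and ARR18 names rested on weaker matches. The tested ARR14 cluster, Cluster-50216.0, had 0.4105, 0.345 and 0.2345 CPM in control and 1.207, 0.7144 and 0.65 CPM in salt libraries. It was called higher at 1.36 (SE 0.47, adjusted p = 0.048, edgeR, Benjamini-Hochberg; log2), on 4 to 17 counts per library, and leaving out any 1 of the 6 libraries ends the call (adjusted p 0.079 to 0.2). Cluster-71316.251861, the main ARR18-named cluster, was at 14.2, 14.25 and 16.14 CPM in control and 7.494, 8.66 and 6.964 CPM in salt libraries. Salt values are all below control values, and it fell by 0.94 (SE 0.13, adjusted p = 0.0016, edgeR, Benjamini-Hochberg; log2), or by 0.53 with seed-plant scaling.

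The 3 other ARR18-named clusters that were tested were not called. Cluster-71316.266874 overlapped between the groups (4.47 ± 0.861 and 2.95 ± 0.919 CPM, SD, n = 3; log2 fold change -0.61, adjusted p = 0.13, edgeR, Benjamini-Hochberg; 0.047 without salt 2). Cluster-71316.31250 had a log2 fold change of 0.00 and Cluster-71316.37458 of -1.05. Summed over 12 clusters, ARR18 was at 21.93 ± 1.11 CPM in control and 14.25 ± 1.49 in salt (log2 fold change -0.62, adjusted p = 0.0036, edgeR, Benjamini-Hochberg), and this call is lost with seed-plant scaling (-0.20, adjusted p = 0.24). The 2 algal-matched clusters together had 1, 7 and 3 counts in control and 17, 12 and 11 in salt libraries. Their counts go the opposite way to the ARR18 sum, of which they are a small part: the whole sum held 353.2, 450.4 and 390.4 counts in control and 192.3, 245.4 and 161.8 in salt libraries. Sparse ARR18-named clusters with a seed-plant match went both ways. Cluster-23267.0 had 0, 0 and 1 counts in control and 4, 4 and 7 in salt libraries. Cluster-71316.37459 had 0, 5 and 5 counts in control and 0, 1 and 2.87 in salt libraries.

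All 42 clusters together gave 238.2, 258 and 243.8 CPM in control and 197.6, 196.9 and 193.7 CPM in salt libraries. The salt total is 0.795 times the control total and the groups do not overlap (exact two-sided permutation p = 0.1, the smallest that 3 against 3 libraries can give). With seed-plant scaling the ratio is 1.06, so a loss of total type-B transcript depends on the scaling, while the make-up below does not.

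Within a library, shares of the summed member counts need no scaling. The shares of a library make up a whole, so they are tied to one another and their p-values are not separate results. ARR2 held 53.48%, 55.5% and 54.9% in control and 74.6%, 73.06% and 71.7% in salt libraries, a gain of 18.5 percentage points. The summed ARR2 level itself was not called with the main scaling (log2 fold change 0.09, adjusted p = 0.27, edgeR, Benjamini-Hochberg). With seed-plant scaling it was called at 0.50. ARR12 held 22.51%, 21.79% and 20.94% in control and 9.451%, 9.005% and 9.608% in salt libraries. ARR11 went from 12.85% ± 0.413 to 5.19% ± 0.697 (SD, n = 3). These 3 shares differ by many times the spread within a group, and the libraries of the 2 groups do not overlap. ARR1 went from 1.75% ± 0.320 to 4.56% ± 0.962, ARR14 from 0.134% ± 0.0381 to 0.517% ± 0.135 and ARR18 from 8.90% ± 0.429 to 7.26% ± 0.722. Each of the 6 shares had an exact two-sided permutation p of 0.1 and an adjusted p of 0.1, the smallest possible here. Computed from FPKM, which weighs clusters per length, 5 of them keep their direction, and ARR18 turns from 10.13% ± 0.709 in control to 11.4% ± 0.681 in salt.

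**Figure D3:**
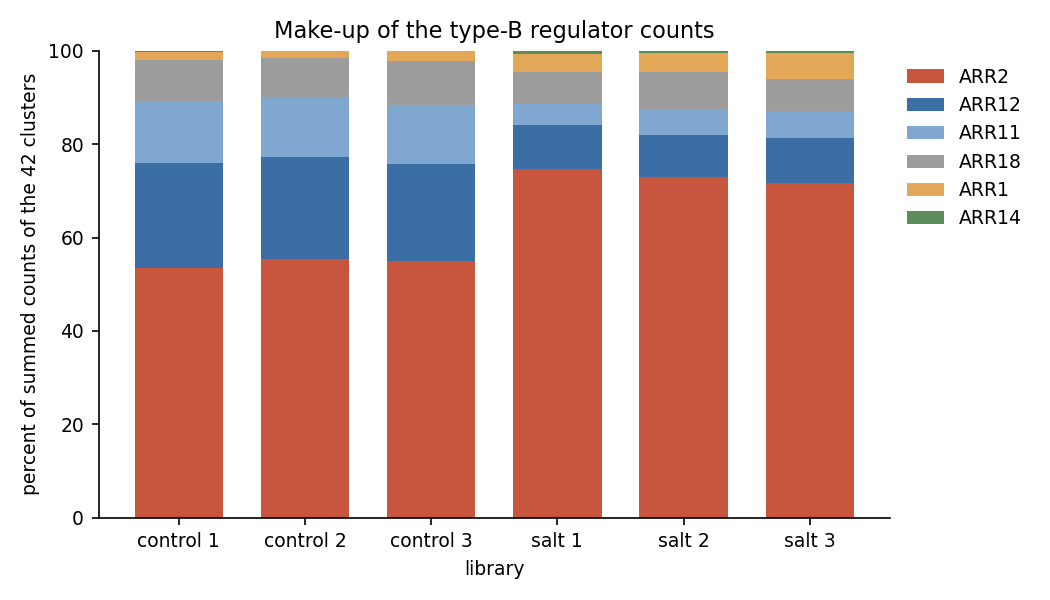
Percent of the summed counts of the 42 member clusters held by each best-match name, one stacked bar per library. The ARR2 part is 53.48% to 55.5% in control and 71.7% to 74.6% in salt libraries, and the ARR12 and ARR11 parts are smaller in the salt bars.

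The shift also ran inside the ARR2 name. Cluster-71316.132147 had 2.2, 2.18 and 2.11 times the CPM of Cluster-71316.172855 in control and 4.9, 5.62 and 5.96 times in salt libraries. Against the leading ARR12 cluster, Cluster-71316.175223, it had 2.76, 3.01 and 3.27 times the CPM in control and 17, 15.9 and 14.4 times in salt libraries. CPM does not allow for cluster length. In mean FPKM, Cluster-71316.132147 stood at 37.25 against 31.9 for Cluster-71316.175223 in control, and at 41.21 against 6.76 in salt libraries. Neither CPM ratio overlaps between groups, and the log2 ratios differ by 1.34 and 2.39 (exact two-sided permutation p = 0.1 each, adjusted 0.1 over the 6 pairs compared). Each ratio sets a cluster called higher over a cluster called lower in the same libraries. The separation therefore follows from those calls and adds no further support.

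**Figure D4:**
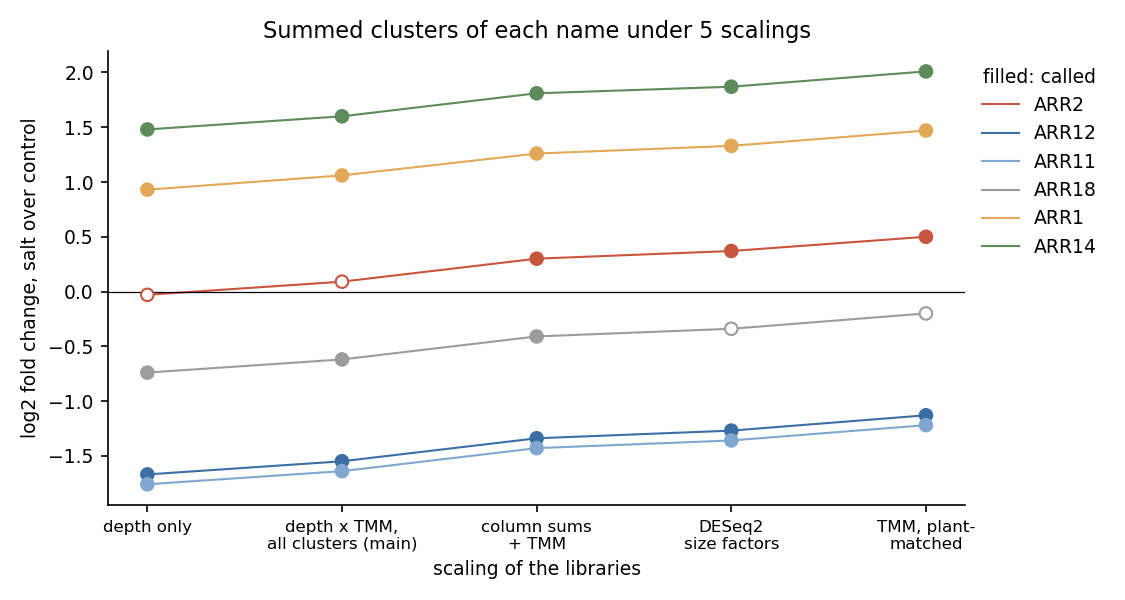
Log2 fold change of salt over control for the summed clusters of each name under 5 ways of scaling the libraries (filled points are called at an adjusted p under 0.05, open points are not). ARR12 and ARR11 stay below 0 and ARR1 and ARR14 above 0 under each of the 5, ARR18 is not called under 2 of them, and ARR2 moves from -0.03 to 0.50.

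Of the 15 called members, 9 were called in each edgeR and DESeq2 alternative tried. They are the lower clusters Cluster-71316.175223, Cluster-71316.227438 and Cluster-71316.175224 (ARR12), Cluster-71316.168669, Cluster-71316.112632 and Cluster-71316.185744 (ARR11), Cluster-71316.251861 (ARR18) and Cluster-71316.172855 (ARR2), and the higher Cluster-71316.200952 (ARR2). The authors' deposited table marks 2 members UP and 7 DOWN, each in the direction of the edgeR call. It does not mark 6 further clusters that edgeR called, among them Cluster-71316.172855, with a log2 ratio of -1 and a q value of 1.4e-15 in the authors' deposited table.

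Other two-component and cytokinin-related names were read from a list of 92 clusters fixed by Swiss-Prot name, of which 58 were tested. The list is wider than the cytokinin pathway itself. In salt roots 6 were higher and 24 lower, with a median log2 fold change of -0.74, beside 23.9% higher, 29.3% lower and a median of -0.36 for all tested clusters. The lower ones include 3 clusters named histidine kinase (HK) 1, 4 named HK5 and 6 named APRR2, which are not cytokinin receptors. Of the higher ones, 3 are HK2-named clusters with a best NR match in a lycophyte. With seed-plant scaling, 8 of these were higher and 21 lower, beside 31.8% and 18.1%. The same backgrounds apply to each class of the list, whose counts are small. No cluster of the regulator table matched the names of phosphotransfer proteins or of cytokinin-metabolising enzymes, which a table of regulators need not hold.

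Histidine kinases 2, 3 and 4 are the cytokinin receptors of Arabidopsis. The most abundant, the HK3 cluster Cluster-71316.180480, had 78.85, 85.93 and 78.63 CPM in control and 16.03, 23.83 and 22.26 CPM in salt libraries. The salt libraries lie far below, and it fell by 1.97 (SE 0.15, adjusted p = 0.00023, edgeR, Benjamini-Hochberg; log2), or by 1.54 with seed-plant scaling. The HK4 cluster Cluster-71316.213539 fell from 21.68 ± 2.36 to 8.25 ± 1.51 CPM (SD, n = 3; log2 fold change -1.39, adjusted p = 0.00092, edgeR with Benjamini-Hochberg; -0.98 with seed-plant scaling). A shorter-matched HK3 cluster, Cluster-71316.180481, was at -0.79 (adjusted p = 0.039, edgeR, Benjamini-Hochberg), a call that ends with seed-plant scaling (0.2). Of the 7 tested HK2 clusters, 3 were lower, 1 was not called and 3 were higher. The 3 higher ones, Cluster-71316.49209, Cluster-71316.23385 and Cluster-71316.133946, have a best NR match in Selaginella, a lycophyte, at a score of 239, and were named after their values were seen. They are higher in the libraries with a smaller seed-plant share of counts, and the part of that share in them was not tested. Among kinases outside the receptor trio, 3 of 7 tested HK1 clusters (an osmosensor in Arabidopsis) and 4 of 4 tested HK5 clusters were lower, beside 29.3% of all tested clusters.

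Type-A regulators, are the primary targets and dampers of the type-B proteins. Of 14 tested clusters 1 was higher and 1 lower, beside 23.9% and 29.3% of all tested clusters, and the median log2 fold change was -0.25, beside -0.36. The leading ARR4 cluster, Cluster-71316.157734, was at 33.02, 31.74 and 29.31 CPM in control and 24.78, 26.3 and 28.6 CPM in salt libraries. Its groups are apart by less than 1 CPM and it was not called (log2 fold change -0.24, adjusted p = 0.063, edgeR, Benjamini-Hochberg), and its sign turns with seed-plant scaling (0.18). The ARR9 cluster Cluster-71316.169353 (log2 fold change 0.21) and the ARR5 cluster Cluster-71316.216166 (-0.25) were also not called, although the ARR9 cluster is called higher with seed-plant scaling (0.63, adjusted p = 0.0052, edgeR, Benjamini-Hochberg). The ARR6 cluster Cluster-92262.0 rose from 0.658 ± 0.0732 to 1.80 ± 0.355 CPM and the ARR17 cluster Cluster-71316.222118 fell from 4.11 ± 1.06 to 0.288 ± 0.271 CPM (SD, n = 3; adjusted p = 0.013 and 0.0092, edgeR, Benjamini-Hochberg), and both were named because they are the only called ones. Whether type-A clusters differ from the others in how often they were called was not tested.

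APRR2, a regulator-like protein with a GARP domain that is known in tomato for fruit pigmentation, was split over 12 clusters, of which 9 were tested, 6 were lower and 0 were higher (29.3% and 23.9% of all tested clusters). Cluster-71316.224581 had 37.75, 50.41 and 44.49 CPM in control and 1.236, 0 and 4.051 CPM in salt libraries. The salt libraries are all far below the controls, with salt 2 at 0 and a log2 fold change of -4.71 (SE 0.89, adjusted p = 0.0049, edgeR, Benjamini-Hochberg). Cluster-71316.104467 had 334 reads over the control and 1 over the salt libraries, a ratio of 257 after scaling (exact 95% interval 45.7 to 10200, counting error only). Cluster-71316.143766, at 12.34, 13.42 and 6.685 CPM in control and 16.23, 17.09 and 12.58 CPM in salt libraries, was not called (log2 fold change 0.50, adjusted p = 0.16, edgeR, Benjamini-Hochberg) and is called higher with seed-plant scaling. These 3 clusters have the same match score of 971 and opposite signs, and how reads were divided among them was not tested.

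Cytokinin response factors (CRF) are AP2-type transcription factors, some of which are cytokinin targets in Arabidopsis. Of 12 tested clusters, 2 named CRF3 were higher and 4 named CRF2 were lower, shares near those of all tested clusters (23.9% and 29.3%). The CRF3 cluster Cluster-71316.239367 had 6.146, 7.401 and 6.131 CPM in control and 12.47, 12.74 and 16.93 CPM in salt libraries, without overlap (log2 fold change 1.09, SE 0.17, adjusted p = 0.0024, edgeR, Benjamini-Hochberg; 1.51 with seed-plant scaling). A second CRF3 cluster, Cluster-71316.239999, rose from 8.65 ± 0.891 to 13.88 ± 1.20 CPM (SD, n = 3; log2 fold change 0.68, adjusted p = 0.0055, edgeR with Benjamini-Hochberg). The other tested CRF3 cluster was not called (-0.26). The 4 lower CRF2 clusters had log2 fold changes of -1.76, -1.22, -1.54 and -1.64 and were also called lower with seed-plant scaling. A further 3 tested CRF2 clusters were not called. The CRF4 cluster Cluster-71316.198540 overlapped between groups at 11.09 ± 0.920 and 10.26 ± 1.16 CPM and was not called.

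**Figure D5:**
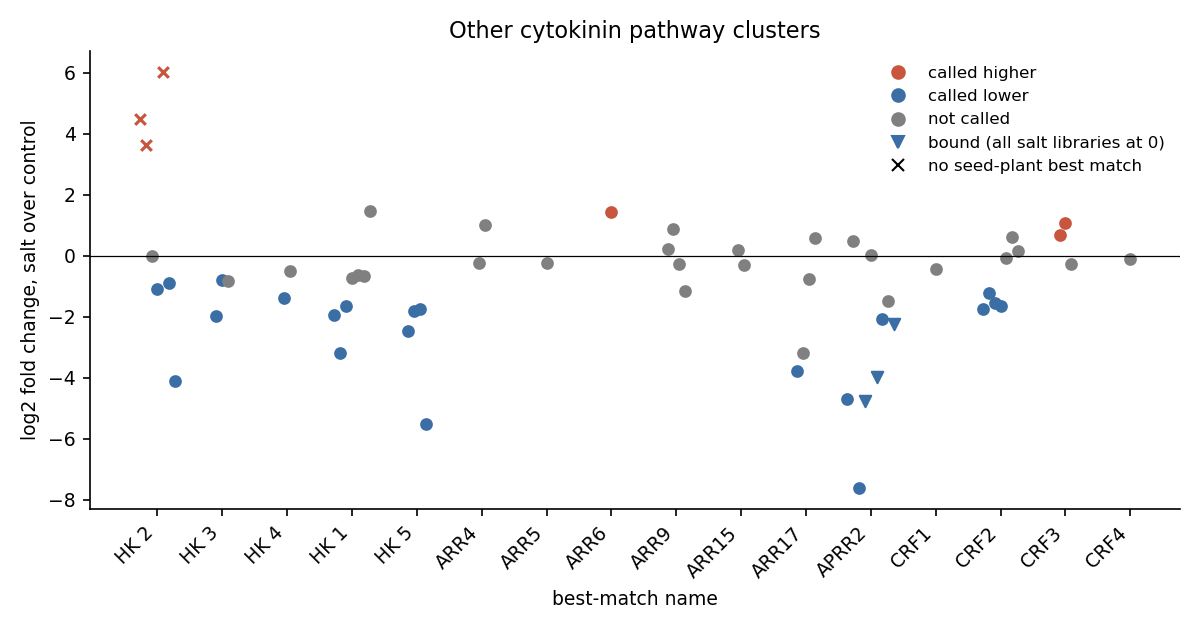
Log2 fold change of salt over control for the 58 tested clusters of the list of two-component and cytokinin-related names (red called higher, blue called lower, grey not called; triangles are bounds where all salt libraries are at 0, crosses have no seed-plant best match). The called HK3, HK4, HK1 and HK5 clusters lie below 0, the 3 high HK2 points are crosses, and most type-A points (ARR4 to ARR17) are grey.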

How the data were processed

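Per the labels, total root RNA of 6 seedling samples went into Illumina TruSeq libraries. Bowtie2 2.0.6 and TopHat2 2.0.12 are listed, with no role, per the submitters' processing notes. For the assembler, counter, strand setting and annotation tools, a name was not given in the sources used here. Per the file headers, the deposited regulator table holds estimated counts, FPKM, match scores and, from the authors' own comparison, log2 ratios and q values with an unnamed test. A further deposited table holds FPKM of 469059 clusters. Counts as deposited have decimals in 49.3% of cases (tolerance 0.001) and were rounded for testing. The table covers part of each library, so depth was recovered from count over FPKM (clusters with at least 200 counts and 1000 bases) and multiplied by TMM factors from the FPKM of all clusters.

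Salt was compared with control by edgeR 4.0.16 (R 4.3.3, quasi-likelihood F-test, filterByExpr defaults: minimum count 10, minimum total 15), adjusted by Benjamini-Hochberg over 5284 tested clusters. The SE is that implied by the F statistic. Members of one name, or members of one name with the same best NR protein, were summed and tested in the same table. Clusters that share a best NR protein under different names were not summed. DESeq2 1.42.0 and limma 3.58.1 on log2(FPKM + 1) were alternatives, the latter for clusters that reach an FPKM of 1 in 3 or more libraries. The scripts were tested on simulated data. P-values measure the spread between labelled biological replicates, and intervals and floors (3 counts per library) cover counting error only.

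The members and lists were chosen with earlier results of these data known. Seed-plant clusters were set by a hand list of 109 seed-plant and 35 other genera, made after seeing the data, as were the sums over receiver-domain clusters, over well-matched seed-plant clusters and over shared best matches. The pairs of clusters set as ratios were picked by hand and not planned. Named clusters are the most abundant tested one per name, up to 12 called members with the largest change, up to 6 abundant members not called, members whose authors' call differs, and the 3 most abundant tested clusters per class of the pathway list; others are named to account for members. No sequences were used here.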

Additional observations from a re-analysis of the deposited data

How the results depend on the processing

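Replicate numbers did not pair the libraries: deviations of same-numbered libraries correlated at 0.022, 0.033 and -0.005. With the replicate block, 2 members were called higher and 8 lower (4 and 11 without it; among the higher ones, Cluster-71316.37462 at 2.33 and Cluster-50216.0 at 1.34 lost their calls, with adjusted p of 0.054 and 0.14 by edgeR), the pathway median was -0.87 and the ARR14 sum, 1.60, lost its call (adjusted p = 0.085, edgeR). The count of members called higher was also 2 with depth alone and with limma on log2(FPKM + 1) or log2(FPKM + 0.1), and 2 to 4 when 1 library was left out. The members' median log2 fold change (-1.06) was -0.78 with DESeq2 size factors, -0.85 with column sums, -1.18 with depth alone, -0.63 with seed-plant TMM, -0.74 with the DESeq2 test, -0.60 with no filter, -1.38 with limma at 0.1, and -1.08 to -0.87 with 1 library left out. In the same order, the pathway median (-0.74) was -0.45, -0.54, -0.86, -0.31, -0.42 and -0.51 (-0.91 to -0.59 with 1 library left out), and the median of all tested clusters (-0.36) was -0.07, -0.14, -0.50, 0.08, -0.04 and -0.18 (-0.42 to -0.22), with 950 called lower against 1549 under seed-plant TMM. The cause of these moves was not tested.

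Sums for ARR1, ARR11 and ARR12 kept their direction and call in each alternative. The ARR14 sum (1.60) lost its call with no filter (1.60, adjusted p = 0.072, edgeR) and in 5 of the 6 fits that leave out 1 library (1.41 to 1.79). The ARR18 sum lost it with DESeq2 size factors (-0.34) and seed-plant TMM (-0.20). The ARR2 sum (0.09) was called at 0.37 with DESeq2 size factors, 0.30 with column sums, 0.50 with seed-plant TMM and 0.41 with the DESeq2 test, and turned to -0.03 with depth alone, -0.05 in both limma fits and -0.04 with receiver-domain clusters only. The ARR18 share turned to 1.27 points with FPKM. Of 33 named clusters, 5 turned sign: Cluster-71316.292482 (-0.18 without salt 3, up to 2.71 without control 3) and Cluster-71316.37460 (-0.10 without salt 3, up to 0.67 without salt 2), and, under DESeq2 size factors, seed-plant TMM and the DESeq2 test, Cluster-71316.198540 (0.17, 0.31, 0.22, and 0.11 with column sums), Cluster-71316.157734 (0.04, 0.18, 0.09) and Cluster-71316.216166 (0.02, 0.16, 0.07). A further 12 crossed the threshold without turning. Depth limits the sparse members: Cluster-71316.37462 had 3 to 21 counts per library and Cluster-50216.0 had 4 to 17.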
